A study of Mus musculus with 177 samples.

Results

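The lungs of newborn mice that breathed a low-oxygen gas and were then reoxygenated with 60% oxygen were compared with the lungs of mice that breathed air throughout. The arrays were chosen by their titles, which gave 12 lungs of the first kind (H60) and 9 of the second (N21), 21 of the 177 arrays of the series. All were C57BL/6 mice at postnatal day 7. H60 mice breathed an inspired oxygen fraction of 0.08 for 120 min and then 60% oxygen for 30 min, and N21 mice breathed an inspired oxygen fraction of 0.21 for 120 min and stayed at 21% for the 30 min. Both then spent 150 min in air before the lungs were taken, so that every value describes a lung some hours after the exposure. The other lung groups, used for comparison, were N100 (air, then 100% oxygen, 10 arrays) and H21, H40 and H100 (the same hypoxia, then 21, 40 or 100% oxygen, with 9, 9 and 11 arrays). Mice were randomized, and the arrays of a group were taken as separate animals. Read from the arrays, 10 of the 12 H60 lungs and 8 of the 9 N21 lungs were female.

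Cells short of oxygen stop degrading the alpha subunits of the hypoxia-inducible factors (HIF), which then switch on genes for glycolysis, vessel growth and vessel tone. Hypoxia is also a stress that raises circulating glucocorticoids, which act through a nuclear receptor on their own set of target genes and can move the circadian clock of peripheral tissues. In the lung of a newborn, alveoli and capillaries are still forming, the smooth muscle of small arteries answers to oxygen, and sodium channels of the epithelium keep the airspaces dry.

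The labelled tissue was borne out by its markers. The mean of 7 type 2 alveolar genes, which make and export surfactant, lay between 11.15 and 11.65 on the log2 scale in the 21 lungs, against group means of 5.57 and 5.56 in brain. Neuron and lens markers lay no higher than 6.19 and 5.65 in the lungs, against a mean of 11.73 in H60 brain and 13.81 in H60 eye. Markers of neighbouring tissue varied from lung to lung: 4 heart muscle genes ranged from 7.28 to 10.80 in H60 and from 7.50 to 10.96 in N21, 4 skeletal muscle genes from 6.44 to 9.27 and from 6.47 to 10.55, and 4 brown fat genes from 4.97 to 8.23 and from 5.31 to 8.15. These are bulk samples, in which fewer cells of a type and less RNA per cell cannot be told apart.

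One array of each group went against its label. The check used genes picked without any H60 or N21 array: 129 genes that differed between the 29 lungs of H21, H40 and H100 and the 10 of N100 (limma, adjusted p under 0.05), 74 higher (0.371% of all genes) and 55 lower (0.276%) after hypoxia. A score averaged their log2 distance from the fitted N100 level, with the sign turned for genes lower after hypoxia. H60 replicate 1 scored -0.02, while the other 11 H60 lungs lay between 0.24 and 0.56. N21 replicate 2 scored 0.53, while the other 8 N21 lungs lay between -0.09 and 0.08. Each stood within the range of the other group, and nothing in the labels sets either apart. Both arrays are kept in the values below, and the leading gene and list values are also given for the 19 other arrays. Because leaving them out was chosen on measured values, counts and differences without them are a description and support nothing.

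**Figure D1:**
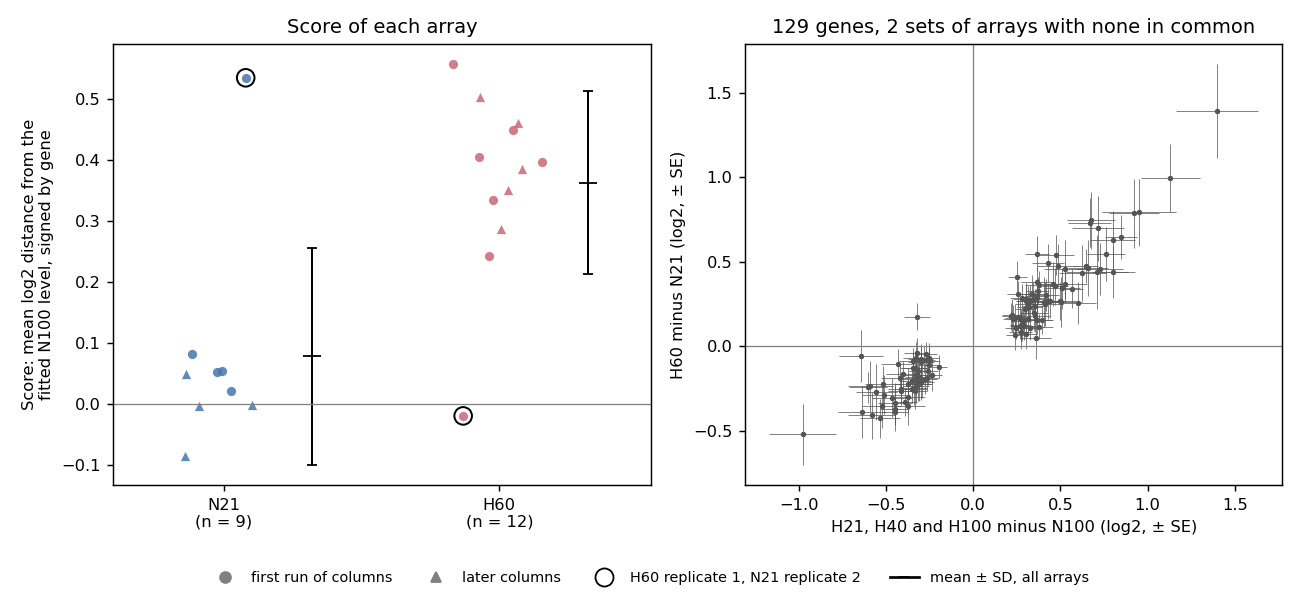
Left, the score of each lung on 129 genes picked in other lungs (vertical axis, mean log2 distance from the N100 level, signed so that hypoxia is up), for 9 N21 and 12 H60 arrays, with black bars for mean ± SD and rings around H60 replicate 1 and N21 replicate 2. Right, each dot is 1 of the 129 genes, with its difference after the other hypoxia exposures against N100 on the horizontal axis and H60 minus N21 on the vertical axis (log2, bars are SE); 128 of 129 lie on the same side of 0 on both axes.

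With all 21 arrays, 7 genes were higher in H60 lungs than in N21 lungs and none was lower, at an adjusted p under 0.05 in a fit of all lung arrays with the position in the deposited table as a block. That is 0.0351% of the 19937 genes tested, and limma gave 949 genes (4.76%) an unadjusted p under 0.05, 662 higher (3.32%) and 287 lower (1.44%). The calls rest on the fit chosen: limma called 0 genes with no block, 0 with only H60 and N21 in the fit, 0 with the array labelled Lung H40 replicate 10 added, and 1 without N21 replicate 6, 7 or 9, while all 7 kept their direction in each of these. The 7 genes were Sgk1, Ntrk2, Vegfc, Atoh8, Adm, Fhl5 and Dpep1. They include a kinase, a neurotrophin receptor, a lymphatic growth factor, 2 regulators of transcription, a vasodilator peptide and a dipeptidase. In the order given they lie on chromosomes 10, 13, 8, 6, 7, 4 and 8.

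Sgk1 encodes a serum- and glucocorticoid-induced kinase that raises the activity of the epithelial sodium channel. Its level ran from 8.82 to 10.14 in H60, with a median of 9.81, and from 8.98 to 9.46 in N21, with a median of 9.14. It rose by 0.55 ± 0.09 (SE, adjusted p = 0.00208). Of the 12 H60 lungs, 10 lay above the highest N21 lung, and the lowest value of all was that of H60 replicate 1. Without the 2 arrays the difference was 0.65. Sgk1 is one of the genes of the score that set them apart, so the larger difference is partly built in.

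Adm encodes adrenomedullin, a vasodilator peptide and a textbook HIF target. It ranged from 7.72 to 8.94 in H60 (median 8.30) and from 7.16 to 8.18 in N21 (median 7.54), and rose by 0.73 ± 0.15 (adjusted p = 0.0325). All 12 H60 lungs lay above the N21 mean. N21 replicate 2, at 8.18, was the highest of its group, and without it and H60 replicate 1 the lowest of the other 11 H60 lungs (7.73) lay above the highest of the other 8 N21 lungs (7.65). The difference was then 0.86. Adm is one of the genes whose score set these arrays apart, so the gap without them is partly built in. Groups that did not overlap in this way, with H60 higher, made up 0.0351% of all genes.

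Fhl5, which encodes a LIM-domain coactivator present in smooth muscle, had the largest difference of the 7. Levels ran from 5.65 to 8.31 in H60 (median 7.10) and from 5.24 to 7.65 in N21 (median 5.47), a rise of 1.39 ± 0.29 (adjusted p = 0.0325). The overlap came from the 2 arrays: the other 11 H60 lungs started at 6.55 and the other 8 N21 lungs ended at 5.78. The difference without both was 1.76. Fhl5 is also one of the genes of the score that set the 2 arrays apart, so this gap is partly built in. The same share of all genes, 0.0351%, did not overlap with H60 higher.

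Dpep1, a membrane dipeptidase that cleaves leukotriene D4, ran from 7.26 to 9.08 in H60 (median 8.48) and from 6.99 to 8.75 in N21 (median 7.35), and rose by 1.00 ± 0.21 (adjusted p = 0.0381). Here too the groups met only through the 2 arrays, since the other 11 H60 lungs began at 8.04 and the other 8 N21 lungs stopped at 7.65, with a difference of 1.28. Groups that did not overlap in this way, with H60 higher, made up 0.0351% of all genes in the 19 arrays. Dpep1 too is one of the genes of the score that set the 2 arrays apart, so its gap is partly built in.

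Vegfc, the growth factor of lymphatic vessels, lay between 7.57 and 8.73 in H60 (median 8.18) and between 7.57 and 8.09 in N21 (median 7.63), and rose by 0.48 ± 0.09 (adjusted p = 0.0164). Ntrk2, which encodes the neurotrophin receptor TrkB, lay between 6.24 and 7.54 in H60 (median 6.98) and between 5.87 and 7.11 in N21 (median 6.10), and rose by 0.65 ± 0.12 (adjusted p = 0.0143). Atoh8, a basic helix-loop-helix transcription factor, lay between 7.64 and 8.48 in H60 (median 8.14) and between 7.40 and 8.05 in N21 (median 7.73), and rose by 0.41 ± 0.08 (adjusted p = 0.0164). In each of these 3 genes 11 of 12 H60 lungs lay above the N21 mean, the exception was H60 replicate 1, and the highest N21 lung was replicate 2. Some overlap remained among the other 19 arrays, in which the difference was 0.58 for Vegfc, 0.81 for Ntrk2 and 0.50 for Atoh8. All 3 are genes of the score that set these arrays apart, so both the exceptions and the larger differences are partly built in.

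**Figure D2:**
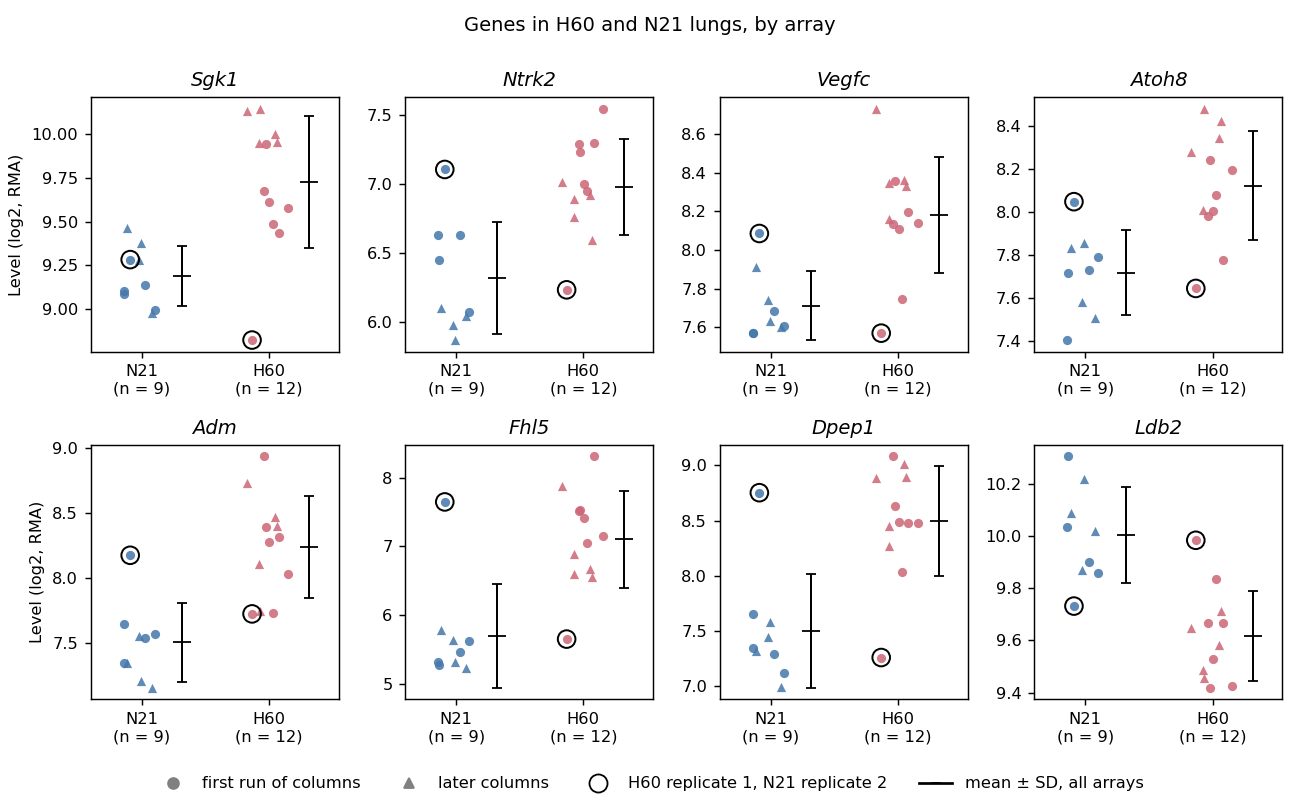
Level of the 7 genes that rose, and of Ldb2, in each lung (vertical axes, log2 after RMA), with circles for the first run of columns in the deposited table and triangles for the later columns. Rings mark H60 replicate 1 and N21 replicate 2 and black bars give the mean ± SD of all arrays of the group; in Fhl5 and Dpep1 the groups are apart but for the ringed arrays.

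Among genes that missed the adjusted threshold, those with the smallest p on the higher side were Lox, Scnn1a, Gdpd2, Prkar1b and Podxl. Scnn1a, the alpha subunit of the epithelial sodium channel that Sgk1 acts on, differed by 0.54 ± 0.12 (adjusted p = 0.0784), and Lox, which cross-links collagen and elastin, by 0.58 ± 0.13 (adjusted p = 0.0784). In both genes all 12 H60 lungs lay above the N21 mean. On the lower side Ldb2, a cofactor that joins LIM-domain transcription factors, ran from 9.42 to 9.98 in H60 (median 9.61) and from 9.73 to 10.30 in N21 (median 10.02), a difference of -0.39 ± 0.08 (adjusted p = 0.0561). All 12 H60 lungs were below the N21 mean, and the highest of them was H60 replicate 1. Among the other 19 arrays the groups did not overlap (9.42 to 9.84 in H60, 9.86 to 10.30 in N21). That held for 0.015% of all genes with H60 lower. Ldb2 is one of the genes of the score that set the arrays left out apart, so this gap is partly built in.

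Without H60 replicate 1 and N21 replicate 2, 40 genes were called, 34 higher (0.171%) and 6 lower (0.0301%), 0.201% of all genes together. They include the 7 genes above, and all 40 had the same direction in the full set of arrays. Of the 40, 30 are among the genes of the score that set the arrays apart, so these calls are partly built in. The higher genes that joined include Fmo2, the main flavin monooxygenase of lung (1.05, adjusted p = 0.00022), Xdh, which makes uric acid from purines (0.84, adjusted p = 0.00143), Adamtsl2, a protein of the elastic fibre (0.92, adjusted p = 0.00569), and Glul, glutamine synthetase (0.48, adjusted p = 0.000367). Lox (0.73, adjusted p = 0.000564) and Scnn1a (0.69, adjusted p = 0.000293) were also among them. The lower genes were Ldb2 (-0.45, adjusted p = 0.00189), Nr1d1, Nr1d2, the cell cycle gene Ccnd1 (-0.47, adjusted p = 0.0493), the metalloprotease gene Adam12 (-0.57, adjusted p = 0.0312) and Zfp28 (-0.31, adjusted p = 0.0325).

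The deposited table falls into a first run of 113 columns and 64 later ones, and 11256 genes differed between them in lung (38 against 22 arrays). The runs held 7 and 5 H60 lungs and 5 and 4 N21 lungs. Within a run, with H60 and N21 lungs only, limma called 0 genes in each, with 1062 and 380 at an unadjusted p under 0.05. With all 6 groups in the fit, the first run gave 0 (500 at an unadjusted p under 0.05) and the later columns 8, of which 7 were higher and 1 lower, and 5 of the 7 genes above were among them. The 7 genes were higher in H60 in both runs: Sgk1 by 0.39 and 0.76, Ntrk2 by 0.50 and 0.84, Adm by 0.55 and 0.98, Fhl5 by 1.36 and 1.43, Dpep1 by 0.72 and 1.37, Vegfc by 0.33 and 0.66 and Atoh8 by 0.25 and 0.62. The 7 were called from these same arrays, so their shared direction in both runs is partly built in and is no replication. Over all genes, which were not picked in this way, 56.1% had the same direction in both runs. The differences of the runs correlated across genes with r = 0.241 (19937 genes of the same arrays, which are not independent). No gene was called for a difference between the runs in the H60 minus N21 value (limma, 316, or 1.58%, at an unadjusted p under 0.05). H60 replicate 1 and N21 replicate 2 both belong to the first run.

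The 129 genes picked in the other lungs gave a second view of H60 against N21 that shares no array with their choice. In a fit of the 21 arrays alone, 128 of them (99.2%) had the direction seen after the other hypoxia exposures, against 53.1% of all genes: 74 of the 74 higher genes, with a median of 0.282, and 54 of the 55 lower genes, with a median of -0.204. An unadjusted p under 0.05 in that direction was reached by 79 of them (61.2%), against 3.76% of all genes. All 7 genes called in H60 minus N21 were among the 129, which are 0.647% of all genes. Those calls came from the fit of all lung arrays, which also holds the arrays that picked the 129. The fit of the 21 arrays alone called 0 genes. The mean score was 0.363 ± 0.150 (SD, n = 12) in H60 and 0.0776 ± 0.178 (SD, n = 9) in N21.

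The oxygen given after hypoxia could be compared without N21. H60 was set against H21, H40 and H100, and limma called 0 genes in each comparison, with 739 (3.71%), 1113 (5.58%) and 213 (1.07%) at an unadjusted p under 0.05. Sgk1 differed from H21 by 0.06, with a 95% interval from -0.12 to 0.24, from H40 by 0.05 (-0.13 to 0.23) and from H100 by 0.07 (-0.10 to 0.24). For Fhl5 the intervals were wide, from -0.70 to 0.45 against H21 and from -0.42 to 0.67 against H100. For Adm they ran from -0.26 to 0.34 against H21 and from -0.44 to 0.13 against H100. Without H60 replicate 1 and N21 replicate 2 the difference of H60 from H21, H40 and H100 was 0.13, 0.12 and 0.13 for Sgk1, 0.02, 0.29 and 0.26 for Fhl5, and 0.09, 0.05 and -0.11 for Adm. A p that misses the threshold does not show that these groups were alike.

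**Figure D3:**
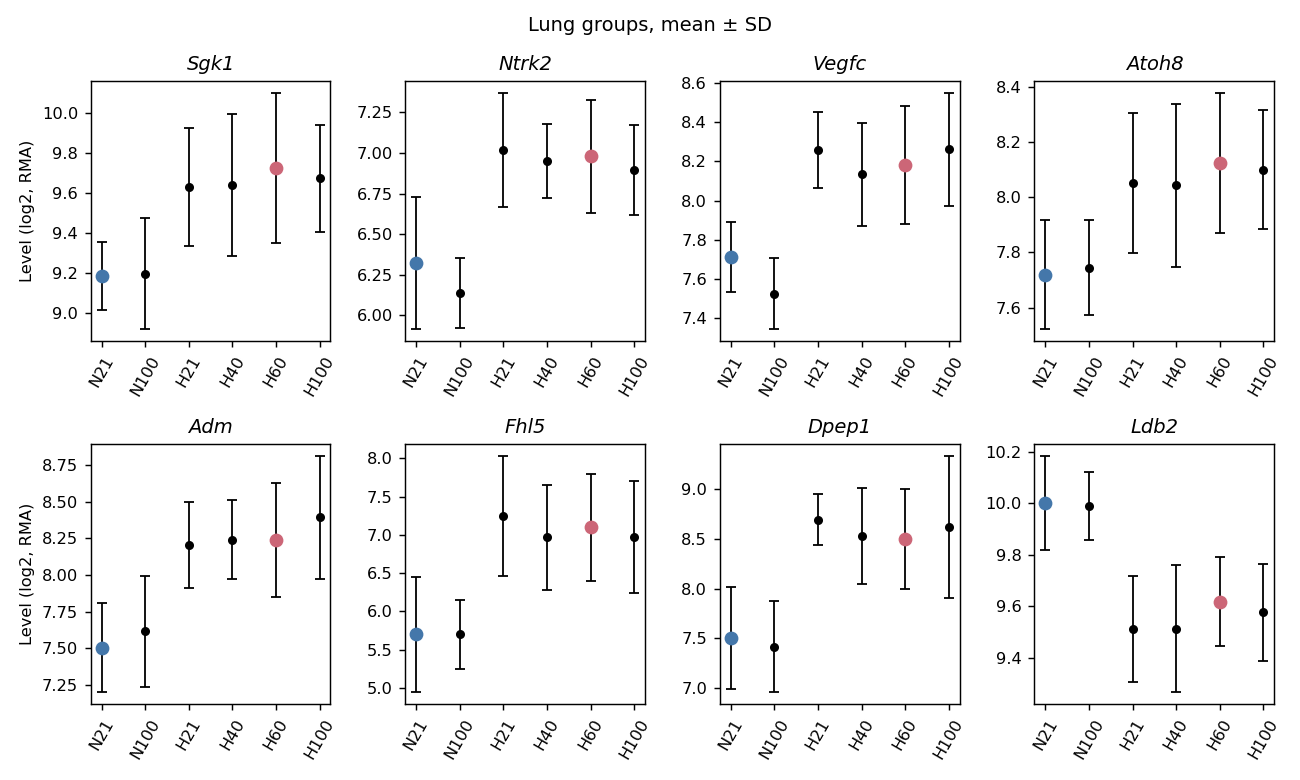
Mean ± SD of the 7 genes that rose and of Ldb2 in the 6 lung groups (vertical axes, log2 after RMA), with N21 in blue and H60 in red. In the 7 genes the 4 hypoxia groups lie above both normoxia groups, and in Ldb2 below them.

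The other hypoxia groups share the N21 arrays with H60, so their values are given side by side and no more. Adm was above N21 by 0.69 in H21, 0.73 in H40, 0.73 in H60 and 0.89 in H100. Dpep1 was above it by 1.22, 1.06, 1.00 and 1.11 in the same order, and Fhl5 by 1.52, 1.24, 1.39 and 1.27. Ldb2 was below it by more in H21 (-0.49), H40 (-0.49) and H100 (-0.43) than in H60 (-0.39), differences of H60 from these groups that no test called. H60 replicate 1 had the highest Ldb2 level of the H60 lungs. Without it and N21 replicate 2 the H60 value was -0.45, while the values given for the other groups include N21 replicate 2.

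Against N100, the mice that breathed 100% oxygen without hypoxia, 18 genes were called in H60, 13 higher (0.0652%) and 5 lower (0.0251%), 0.0903% of all genes together. The same H60 lungs enter this comparison and the one with N21, so it is no independent check of that one. Ntrk2 (0.90 ± 0.12, adjusted p = 6e-06), Vegfc (0.60 ± 0.09, adjusted p = 0.000102), Fhl5 (1.46 ± 0.28, adjusted p = 0.012), Dpep1 (1.02 ± 0.21, adjusted p = 0.0163) and Sgk1 (0.43 ± 0.09, adjusted p = 0.017) rose here too, while Adm differed by 0.63 ± 0.15 (adjusted p = 0.0624) and Atoh8 by 0.31 ± 0.08 (adjusted p = 0.112). Glul and Fmo2 rose by 0.49 and 0.92 (adjusted p = 0.00508 and 0.0163). The 5 lower genes were Nr1d2 (-0.44), Wif1, a secreted inhibitor of Wnt (-0.42), Nr1d1 (-0.58), Nup210 (-0.37) and Ldb2 (-0.37). Without H60 replicate 1 the count was 30, and 45 without both arrays.

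Clock genes lay on both sides of 0. Nr1d1 and Nr1d2, which encode the REV-ERB nuclear receptors that repress Arntl and Cry1, were lower in H60, and Arntl and Cry1 were higher. Nr1d1 ran from 6.43 to 7.46 in H60 (median 7.08) and from 7.21 to 7.94 in N21 (median 7.69), a difference of -0.55 ± 0.13 (adjusted p = 0.106). All 12 H60 lungs lay below the N21 mean, and 8 below the lowest N21 lung. The difference was -0.33 ± 0.08 for Nr1d2 (adjusted p = 0.149), 0.33 ± 0.08 for Cry1 (adjusted p = 0.12) and 0.25 ± 0.07 for Arntl (adjusted p = 0.283). Of 17 clock genes measured none was called. On the higher side 4 had an unadjusted p under 0.05, against 3.32% of all genes. On the lower side 3 did (Nr1d1, Nr1d2 and Dbp, a clock output factor), against 1.44% of all genes. Without the 2 arrays Cry1 and Arntl rose (0.40 and 0.31) and Nr1d1 and Nr1d2 fell (-0.62 and -0.38). Cry1 and Nr1d2 are among the genes of the score that set the arrays apart, so their values here are partly built in. The time of day at which lungs were taken is not given in the sources used here, and its part in the result was not tested.

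**Figure D4:**
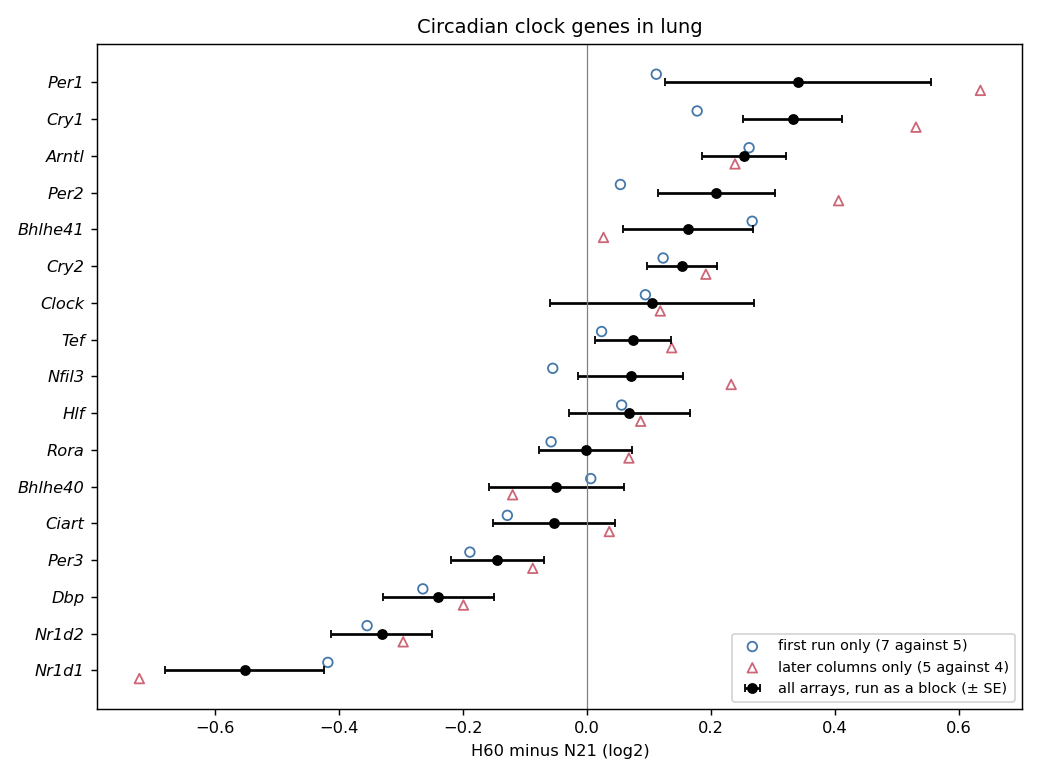
H60 minus N21 of 17 clock genes (horizontal axis, log2): black dots with SE are all arrays with the run as a block, open circles the first run only and open triangles the later columns only. Nr1d1 and Nr1d2 lie below 0 and Cry1 and Arntl above 0 in both runs.

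Of 21 genes that answer to glucocorticoids, 7 had an unadjusted p under 0.05 on the higher side and none on the lower, where all genes gave 3.32% and 1.44%. Their median was 0.254, against 0.00518 over all genes, and it was 0.0728 in the first run and 0.325 in the later columns. Sgk1 was the one called. Dusp1, a phosphatase that turns off MAP kinases, was higher by 0.43 ± 0.13, Sult1a1, a sulfotransferase, by 0.55 ± 0.14, and Glul by 0.34 ± 0.09. Tsc22d3 and Fkbp5, which respond strongly to the hormone in many tissues, differed by 0.29 ± 0.17 and 0.18 ± 0.21. In N21 replicate 2 the mean of the list was 8.63, the highest of its group, and in H60 replicate 1 it was 7.97, the lowest of its group. Sgk1, Glul and Sult1a1 are among the genes of the score that set these 2 arrays apart. The list means of the 2 arrays, and the values without them, are therefore partly built in. Without these 2 arrays 3 members were called, all higher (34 of 19937 over all genes), and the median was 0.385. An unadjusted p under 0.05 on the higher side was then reached by 11 members, against 875 of 19937 genes.

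HIF targets outside glycolysis gave 1 called gene of 30, Adm, and 3 at an unadjusted p under 0.05 on the higher side (3.32% of all genes). The median was 0.0427. Besides Adm, the 3 were Edn1, the vasoconstrictor endothelin-1 (0.34 ± 0.11), and P4ha2, a collagen prolyl hydroxylase subunit (0.32 ± 0.11). Without the 2 arrays 1 was called, again Adm (34 of 19937 over all genes, on the higher side). An unadjusted p under 0.05 was then reached by 5, all higher, against 875 of 19937 genes. Adm is one of the genes of the score that set the arrays apart, so its call here is partly built in. Vegfa (-0.04 ± 0.09), the glucose transporter gene Slc2a1 (0.01 ± 0.09) and Hmox1 (0.06 ± 0.11), which encodes a haem-degrading enzyme, were near 0, and their signs differed between settings. Among 19 glycolysis genes none was called, and Aldoc (-0.16 ± 0.08) alone reached an unadjusted p under 0.05. Of 18 vasoactive genes 15 were above 0 and 3 below, with a median of 0.0853 and a lowest value of -0.958. Among them Adm rose, and Calcrl, which encodes the adrenomedullin receptor, differed by 0.18 ± 0.08.

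Of 32 DNA replication genes, 11 had an unadjusted p under 0.05, all lower in H60 (1.44% of all genes), and none passed after adjustment. The median was -0.161, with 26 below 0, and it was -0.0761 in the first run and -0.215 in the later columns. Mcm6 (-0.30 ± 0.10), Mcm7 (-0.23 ± 0.08) and Mcm5 (-0.24 ± 0.10) belong to the helicase that opens DNA at origins, and Rpa2 (-0.22 ± 0.07) binds the single strands. Mitosis genes had a median of 0.0273 over 23 members with none at an unadjusted p under 0.05. The list mean of the replication genes was 7.93 in H60 replicate 1, the highest of its group, and 7.65 in N21 replicate 2, the lowest of its group. Without both, 14 replication genes had an unadjusted p under 0.05, all lower, against 437 of 19937 genes, and the list median was -0.204. Of 35 oxidative phosphorylation genes 33 were below 0, with a median of -0.117, none called and 1 at an unadjusted p under 0.05 (Ndufv1, -0.28 ± 0.12). Without the 2 arrays their median was -0.152. Genes of neighbouring tissue rich in mitochondria also had medians below 0 with all arrays. Brown fat had -0.399 with 6 of 8 below 0, skeletal muscle -0.201 with 12 of 14 and cardiac muscle -0.183 with 9 of 10. In the first run and the later columns, the median was -0.191 and -0.0437 for oxidative phosphorylation, and 0.164 and -0.634 for skeletal muscle. It was -0.2145 and -0.530 for brown fat, and -0.255 and -0.149 for cardiac muscle. The part of these tissues in the oxidative phosphorylation values was not tested.

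No neutrophil gene was called, 5 of 15 had an unadjusted p under 0.05 on the higher side and none on the lower (3.32% and 1.44% of all genes), and the median was 0.265. Without the 2 arrays these were again 5 and 0 (875 and 437 of 19937 over all genes), and the median was 0.288. Mmp8, the neutrophil collagenase, ran from 4.72 to 6.40 in H60 (median 5.39) and from 4.07 to 5.50 in N21 (median 4.56), a difference of 0.79 ± 0.24. All 12 H60 lungs lay above the N21 mean. Csf3r and Cxcr2, receptors that mobilize and attract neutrophils, differed by 0.40 ± 0.14 and 0.57 ± 0.22, and S100a8 by 0.48 ± 0.24. The 4 marker genes averaged 6.51 ± 0.41 (SD, n = 12) in H60 and 6.03 ± 0.45 (SD, n = 9) in N21, and ranged from 6.01 to 7.29 and from 5.60 to 7.02. Lcn2 is also on the glucocorticoid list, and the part of these cells in that list was not tested. The monocyte genes Ms4a4a (0.94 ± 0.32) and Ccr2 (0.48 ± 0.19) had an unadjusted p under 0.05, while Csf1r and Cd68 differed by -0.06 and 0.04.

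Over all genes, an unadjusted p under 0.05 was reached by 3.32% on the higher side and 1.44% on the lower. Of 13 smooth muscle genes Fhl5 rose, and 3 others reached an unadjusted p under 0.05: Acta2 (0.26 ± 0.09), Tagln (0.21 ± 0.07) and Cspg4 (0.20 ± 0.08). Of 23 endothelial genes 14 were above 0 and 9 below, with a median of 0.0606. An unadjusted p under 0.05 was reached by 3 on the higher side and 1 on the lower. The 3 were Vegfc, which was called, the junction protein gene Jam2 (0.36 ± 0.10) and the angiopoietin receptor gene Tek (0.26 ± 0.10). On the lower side it was Aplnr (-0.20 ± 0.09), the apelin receptor. Of the lung monooxygenases and related enzymes 5 of 12 had an unadjusted p under 0.05, all higher, led by Fmo2 (0.79 ± 0.19), Xdh (0.63 ± 0.16) and Inmt (0.82 ± 0.26). Of 19 fibroblast signal genes 2 had an unadjusted p under 0.05, both lower: Wnt2 (-0.51 ± 0.19) and Hhip (-0.24 ± 0.11), which binds hedgehog ligands. That list had a median of 0.0226, with 10 members above 0 and 9 below. Heat shock genes had a median of 0.224 over 12 members with 10 above 0, none called and 1 at an unadjusted p under 0.05 (Dnajb1, 0.25 ± 0.12). Antioxidant and immediate-early lists had medians of -0.00558 and 0.0418 with none called. Surfactant gene Sftpc (0.03 ± 0.04) and the type 1 cell gene Ager (0.04 ± 0.07) were close to 0.

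**Figure D5:**
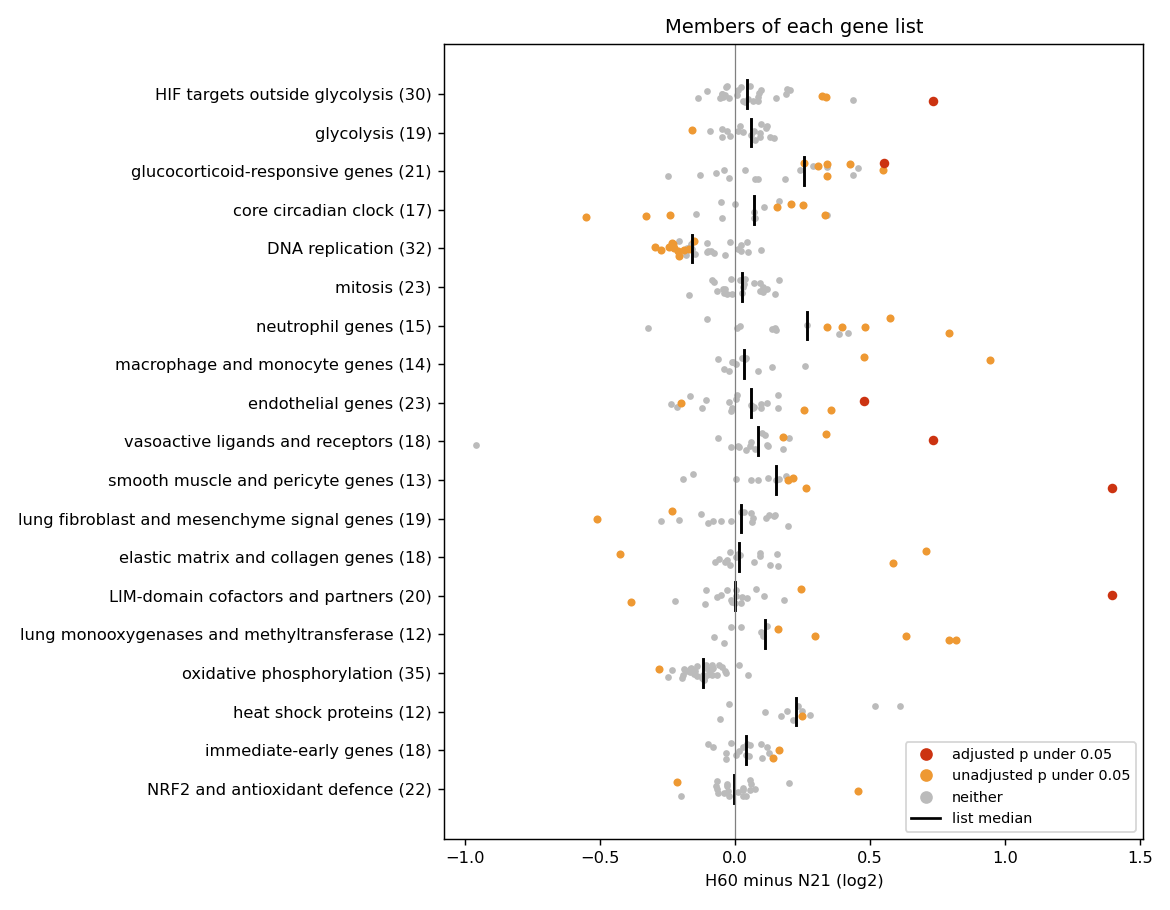
H60 minus N21 (horizontal axis, log2) of each member of 19 gene lists, with the number of members measured in brackets and a black tick for the median. Red members have an adjusted p under 0.05, orange ones an unadjusted p under 0.05. Among the 19 lists shown, the glucocorticoid, neutrophil and heat shock lists have medians above 0.2 and the replication list the lowest.

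The bases just before a gene show which short motifs lie there. HIF binds a core of ACGTG or GCGTG, and windows of the 250 bases before the start were read from RefSeq (GRCm38.p6) for genes with an entry. Either motif, on either strand, was in 38.6% of 32851 windows of 27025 genes, in 9 of 20 windows (45.0%) of the 12 higher genes with the smallest p, 9 of which had an entry, in 4 of 7 windows (57.1%) of the 12 lower genes, 7 of which had one, and in 22 of 28 windows (78.6%) of the HIF list. AGAACA, the sequence of a glucocorticoid receptor half-site, was in 16.1% of all windows, in 5 of 20 (25.0%) of the higher genes and in 1 of 7 (14.3%) of the lower. All 5 windows of the higher genes with AGAACA belonged to Sgk1 or Fhl5. Of the 20 windows, Sgk1 had 6 and Prkar1b 5, so shares of windows are not shares of genes. The following 5 windows were printed because they belong to Adm and P4ha2, of the HIF list, to Atoh8 and Ntrk2, which rose, and to Nr1d1, and because each holds a match. The windows of Vegfc and Dpep1, which also rose, held neither motif, and 3 of 6 windows of Sgk1 and 1 of 2 of Fhl5 held one. Capitals mark ACGTG or GCGTG as written or on the other strand, where they read CACGT or CACGC.
Adm: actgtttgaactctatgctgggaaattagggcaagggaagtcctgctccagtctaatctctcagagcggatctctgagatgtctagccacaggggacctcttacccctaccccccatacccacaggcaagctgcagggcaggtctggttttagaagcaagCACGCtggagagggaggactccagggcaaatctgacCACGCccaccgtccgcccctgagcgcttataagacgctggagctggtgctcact
P4ha2: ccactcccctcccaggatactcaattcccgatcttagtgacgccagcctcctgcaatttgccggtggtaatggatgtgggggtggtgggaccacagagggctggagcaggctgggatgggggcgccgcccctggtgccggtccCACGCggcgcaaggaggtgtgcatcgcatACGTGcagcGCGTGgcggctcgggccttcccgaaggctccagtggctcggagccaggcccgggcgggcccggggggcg
Atoh8: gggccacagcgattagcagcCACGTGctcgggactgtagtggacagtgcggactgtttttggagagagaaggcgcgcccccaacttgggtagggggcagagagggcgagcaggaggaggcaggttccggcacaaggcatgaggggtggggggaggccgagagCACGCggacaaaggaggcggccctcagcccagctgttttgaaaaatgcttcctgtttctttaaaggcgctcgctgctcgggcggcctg
Ntrk2: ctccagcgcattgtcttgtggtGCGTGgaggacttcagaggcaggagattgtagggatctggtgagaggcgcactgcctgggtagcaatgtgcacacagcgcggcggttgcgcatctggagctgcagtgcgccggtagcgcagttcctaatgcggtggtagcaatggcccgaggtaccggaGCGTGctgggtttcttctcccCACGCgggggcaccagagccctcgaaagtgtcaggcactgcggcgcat
Nr1d1: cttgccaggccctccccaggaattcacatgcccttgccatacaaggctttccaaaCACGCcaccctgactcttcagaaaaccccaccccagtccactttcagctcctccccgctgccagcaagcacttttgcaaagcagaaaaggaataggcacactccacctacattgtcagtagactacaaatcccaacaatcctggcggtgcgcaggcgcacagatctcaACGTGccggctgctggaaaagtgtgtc
The Adm window (chr7:110627407-110627656, plus strand) held 2 GCGTG, and that of P4ha2 (chr11:54100674-54100923, plus strand) held 1 ACGTG and 2 GCGTG. The Atoh8 window (chr6:72235578-72235827, minus strand) held a CACGTG, in which ACGTG reads on both strands, and 1 GCGTG. The Ntrk2 window (chr13:58806319-58806568, plus strand) held 3 GCGTG, and that of Nr1d1 (chr11:98775378-98775627, minus strand) 1 of each. A match describes the letters, and no binding was measured.

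The differences in lung were also set against those of brain and eye of the same exposures. The design names 62 mice for the 177 arrays, so tissues share animals, and the fit took the arrays as independent because the labels do not tie them to an animal. No gene was called for a difference between lung and brain or between lung and eye (limma, 716, or 3.59%, and 562, or 2.82%, at an unadjusted p under 0.05). Sgk1 differed by 0.03 ± 0.08 in brain and 0.07 ± 0.09 in eye, and the difference of lung from brain was 0.52 ± 0.11 at an adjusted p of 0.0972. For Fhl5 the brain value was 0.16 ± 0.23 and for Adm 0.08 ± 0.13. Without the 2 lung arrays, 10 genes were called in each of these comparisons.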

How the data were processed

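Gene expression was measured on Affymetrix Mouse Gene 1.0 ST arrays from 10 ng of RNA per array. Per the labels' protocols the RNA came from a Ficoll gradient with a kit for blood, while the design text names tissue kept in RNAlater. The authors deposited log2 values made with RMA, per the submitters' processing notes; its version and the genome build are not given in the sources used here. RMA corrects background, makes array distributions alike and summarizes probes, so a shift shared by all genes cannot be seen. Values ran from 1.50 to 14.54. Of 34760 probe sets 21640 have 1 gene symbol, 1321 several and 11799 none, and the brightest probe set of a gene was used, which left 19937 genes.

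Fits used R 4.3.3, limma 3.58.1 and data.table (version 1.17.8; lmFit and eBayes, two-sided, Benjamini-Hochberg over all genes, called under 0.05), with Python 3.11.15, pandas 2.3.3, numpy 2.4.6 and matplotlib 3.10.9. All lung arrays of the 6 groups shared 1 fit with the position in the deposited table as a block; the array labelled Lung H40 replicate 10, which has the profile of brain, was left out. Errors after ± are SE unless marked SD. Per-gene levels are not compared between genes. Named genes were the 12 per direction with the smallest p, those called without H60 replicate 1 and N21 replicate 2, up to 4 members per list with some textbook members, and called genes of the other comparisons, skipping predicted genes, receptors of smell and small RNAs. Members, lists and rules were chosen with earlier results of these data known. Alternatives were no block, only the groups compared, array weights, leaving out the dimmest 40% of genes, requantiling, every probe set, the replicate number as a block, a sex covariate, each run alone, trend and robust fitting, and each array left out. The fits were tested on simulated data. The number of arrays limits the precision.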

Additional observations from a re-analysis of the deposited data

Results flagged for a closer look

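N21 replicate 2 lay far from the other 8 N21 lungs in 6 of 29 measures checked for such a gap. Chance flags about 1 in 20 groups, but the measures are correlated and the array was already known to stand apart on hypoxia genes, so the 6 are a description of it and say nothing against chance. Its Adm level was 8.18 against 7.16 to 7.65 in the others, its Fhl5 level 7.65 against 5.24 to 5.78, and its Dpep1 level 8.75 against 6.99 to 7.65. Scnn1a stood at 9.94 against 8.73 to 9.29 and Adamtsl2 at 9.35 against 7.50 to 8.38. Its score on the genes picked in other lungs was 0.5347, against -0.086 to 0.082 in the others. Its value in all of these lay within the range of the H60 lungs, and the 6 measures share 1 array. The H60 group, with 12 arrays, is too large for this check.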

How the results depend on the processing

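The 7 genes kept their direction under every alternative run, but their count did not hold. H60 minus N21 gave 0 genes with no run block, 0 with only the groups compared, 0 with the array labelled Lung H40 replicate 10 and 0 in the first run alone, 8 in the later columns alone, 28 with array weights and 40 without H60 replicate 1 and N21 replicate 2 (the doubted arrays). Leaving out each array in turn gave 1 to 32, with 1 without N21 replicate 6, 7 or 9, 13 without H60 replicate 1 and 32 without N21 replicate 2; Sgk1 was called in all 21 of these. H60 minus N100, 18 genes, gave 9 with no run block, 7 with Lung H40 replicate 10, 87 with array weights, 45 without the doubted arrays, 0 in either run alone and 7 to 30 with each array left out. The tissue differences, 0 each, gave 10 and 10 without the doubted arrays and 2 and 2 with array weights. The cause was not tested.

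With the replicate number as a block beside the run, H60 minus N21 gave 1 gene and H60 minus N100 gave 3. Same-numbered arrays correlated from -0.457 to 0.462 over 9 pairs, 2 above 0.1, and 1 H60 array correlated best with its own number, so the numbers were not taken to pair the samples.

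The sign of 7 named genes, none of them called, reversed under some settings. With array weights Mt2 was 0.007 and Fos 0.06. With requantiling Slc2a1 was -0.001 and Sftpc -0.001. With the replicate block Slc2a1 was 0 and Fos 0.111. In the first run alone Hmox1 was -0.029 and Fos 0.081. In the later columns alone Cdk1 was 0.036, Vegfa 0.045, Slc2a1 -0.078 and Mt2 0.245. With 1 array left out Fos ran from -0.061 to 0.029, Mt2 from -0.094 to 0.032, Slc2a1 from -0.028 to 0.058 and Vegfa from -0.091 to 0.016.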
